A study of Mus musculus with 6 samples.

Results

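The vascular endothelial growth factor (VEGF) ligands and their receptors were examined in lungs of mice given bacterial endotoxin and then either saline or recombinant human soluble thrombomodulin (rhTM). The group held 9 genes: the ligands Vegfa, Vegfb, Vegfc and Pgf, the receptor tyrosine kinases Flt1, Kdr and Flt4, and the co-receptors Nrp1 and Nrp2. They were chosen by name, through the transcript accession of each probe, and 17 probes on the array were matched to them. For each gene the probe with the highest mean signal over the 6 arrays was used, and its other probes are given beside it. All 9 genes passed the filter on dim probes, of 16370 genes tested, and their 17 probes were among 36061 probes tested.

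Whole-lung RNA from 10-week-old male C57BL6 mice was hybridised to 1-colour Agilent gene expression arrays, 1 array for each of 3 saline and 3 rhTM samples. All mice had been starved for 16 h and injected intraperitoneally with lipopolysaccharide (LPS, the endotoxin of Gram-negative bacteria) at 20 mg/kg. Saline or rhTM was given at 3 h and 24 h after LPS, and lungs were taken at 30 h. rhTM is the extracellular part of thrombomodulin, an endothelial surface protein that binds thrombin and promotes activation of protein C. No array of mice without LPS was analysed here, so every value is from an endotoxin-treated lung and the change caused by LPS was not measured. The labels do not tie the arrays to litters, and the p-values measure the spread between these 6 samples only.

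The arrays lay on 2 slides, and this bears on all values below. Slide 1 held saline replicates 2 and 3 and rhTM replicates 1 and 2, and slide 2 held saline replicate 1 and rhTM replicate 3. In the table of processed values that the authors deposited, the columns named saline replicate 1 and rhTM replicate 2 held each other's scanner values. Within 0.1%, 99.8% of probes in each of these columns matched the other array, and the sources used here do not settle which naming is right. Values below follow the scanner output, and values from the authors' table are named as such. The array of saline replicate 1 also had a spike-in slope of 0.826, outside the range accepted by the scanner software, whereas the other arrays had slopes of 1.07 to 1.09. All 14 markers of endothelium (Pecam1 and Cdh5 among them) and all 8 markers of alveolar type 2 cells (Sftpc among them) passed the filter. Their transcripts were thus detected, but the filter passed most genes, 16370 of the 22815 tested without it. In whole tissue, fewer cells of a type and less RNA per cell cannot be told apart.

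VEGF-A is secreted by epithelial and other cells under control of oxygen sensing, and binds KDR (VEGFR2) and FLT1 (VEGFR1) on endothelium. KDR carries most of the signal for endothelial survival, growth and permeability. FLT1 binds VEGF-A, VEGF-B and placental growth factor tightly but signals weakly, and its soluble form traps ligand. VEGF-C acts mainly through FLT4 (VEGFR3) and drives growth of lymphatic vessels. The neuropilins bind both VEGFs and class 3 semaphorins. In the lung, alveolar epithelium supplies VEGF-A to a dense capillary bed, and leakage of that bed is part of endotoxin injury.

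None of the 9 genes passed the test between rhTM and saline lungs. By limma over all 16370 genes, each member had a Benjamini-Hochberg adjusted p of 0.9999, and 0 members were called at 0.05. Over all genes 0% were called. At an unadjusted p under 0.05 there were 0 members, against 306 of all genes (1.87%), and the methods' t-test likewise gave 0 members. The mean was higher with rhTM for 4 members and lower for 5, where 50.7% of all genes were higher, and the median difference over the members was -0.03 on the log2 scale, beside 0.0026 over all genes. The saline and rhTM arrays overlapped for all 9 members. They did not overlap for 5.52% of all genes, and 0 of 9 members is near that share. The 95% confidence intervals of the fold changes ran from 0.569 at the lowest (Nrp1) to 1.55 at the highest (Kdr), and the narrowest was that of Pgf (0.842 to 1.26). All levels below are log2 of the processed signal minus the 75th percentile of that array, so a level of 0 is the 75th percentile of the array. Levels of different probes are not comparable with each other.

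**Figure D1:**
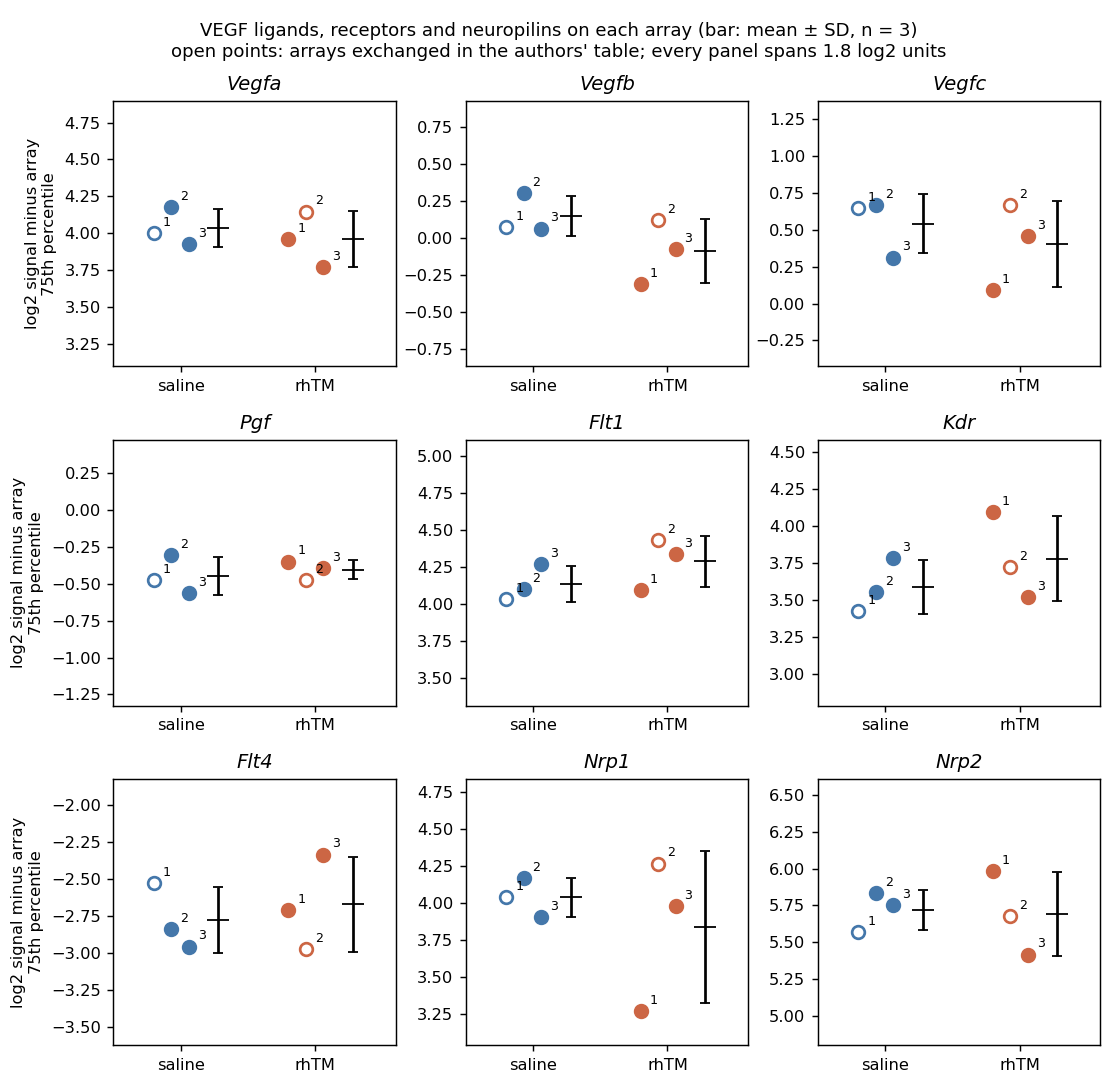
Level of each of the 9 VEGF genes (log2 processed signal minus the 75th percentile of the array) on the 3 saline and 3 rhTM arrays, with 1 point per array, the replicate number beside it and a bar for mean ± SD. Open points are the arrays whose columns are exchanged in the authors' table, and every panel spans the same number of log2 units. The groups overlap in every panel, and rhTM replicate 1 is the lowest array for Vegfb, Vegfc and Nrp1 and the highest for Kdr and Nrp2.

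Among the ligands, the mean was lower with rhTM for Vegfa, Vegfb and Vegfc and slightly higher for Pgf, and no difference passed the test. Vegfa (probe A_52_P638895), the main ligand of endothelial survival and permeability, had levels of 4.0, 4.18 and 3.93 in saline replicates 1 to 3 and 3.96, 4.15 and 3.77 in rhTM replicates 1 to 3. The second replicate was the highest array of both groups and the groups overlapped. The difference was -0.08 (SE 0.14, 95% confidence interval -0.42 to 0.27, n = 3 per group, exact permutation p = 0.6), and -0.17 in the authors' table. On the linear scale the mean was 16.4 ± 1.47 times the 75th percentile with saline and 15.6 ± 2.04 with rhTM (SD, n = 3). The other 3 Vegfa probes gave differences of -0.0081, -0.09 and 0.0022.

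Vegfb (probe A_52_P436628), a ligand of FLT1 alone among the receptor kinases, had levels of 0.08, 0.30 and 0.06 with saline and -0.31, 0.12 and -0.08 with rhTM. Its lowest arrays were rhTM replicates 1 and 3, but rhTM replicate 2 was above saline replicates 1 and 3. The difference was -0.24 (SE 0.15, interval -0.60 to 0.13, exact permutation p = 0.3). It was below 0 under every alternative run, from -0.48 to -0.12, and was not called under any of them.

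Vegfc (probe A_51_P433870), the lymphatic ligand, had levels of 0.65, 0.67 and 0.31 with saline and 0.09, 0.67 and 0.46 with rhTM. rhTM replicate 1 was the lowest array, and the other rhTM arrays lay among the saline arrays. The difference was -0.14 (SE 0.19, interval -0.58 to 0.31, exact permutation p = 0.6) and 0.02 without rhTM replicate 1. A second, dimmer Vegfc probe was also lowest in rhTM replicate 1, at -4.93, where the other arrays ran from -3.99 to -3.24. Its difference was -0.63 (SE 0.38).

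Pgf (probe A_51_P318381), the placental growth factor that binds FLT1, had levels of -0.47, -0.30 and -0.56 with saline and -0.35, -0.47 and -0.39 with rhTM. The rhTM arrays lay inside the saline range. The difference was 0.04 (SE 0.12, interval -0.25 to 0.33, exact permutation p = 0.7). The spread within groups was the smallest of the members, with an SD of 0.10, which was wider than that of only 12.3% of all genes.

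The levels of Vegfb and Vegfc across the 6 arrays, each centred on its own mean, were the closest of the 36 pairs of members (root mean square difference 0.117). Their promoter windows are shown for that reason, beside that of the receptor gene Flt4, the member whose groups separated in the authors' table. Each is the 250 bases before the outermost annotated start of the gene in RefSeq (assembly GRCm38.p6), 5′ to 3′ on the strand of the gene. Capitals mark GC boxes, the 6 letters GGGCGG or CCGCCC, searched on both strands with overlaps counted. The windows lie at chr19:6987652-6987901 on the minus strand for Vegfb, chr8:54077282-54077531 on the plus strand for Vegfc and chr11:49609429-49609678 on the plus strand for Flt4.
Vegfb: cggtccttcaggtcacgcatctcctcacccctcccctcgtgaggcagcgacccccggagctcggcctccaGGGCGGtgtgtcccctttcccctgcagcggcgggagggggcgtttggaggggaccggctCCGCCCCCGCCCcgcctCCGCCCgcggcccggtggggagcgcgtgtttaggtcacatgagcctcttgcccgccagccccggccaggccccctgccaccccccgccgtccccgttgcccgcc
Vegfc: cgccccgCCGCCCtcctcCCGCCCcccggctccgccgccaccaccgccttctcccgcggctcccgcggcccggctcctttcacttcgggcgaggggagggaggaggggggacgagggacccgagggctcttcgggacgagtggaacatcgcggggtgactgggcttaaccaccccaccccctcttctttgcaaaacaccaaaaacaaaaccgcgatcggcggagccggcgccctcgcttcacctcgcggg
Flt4: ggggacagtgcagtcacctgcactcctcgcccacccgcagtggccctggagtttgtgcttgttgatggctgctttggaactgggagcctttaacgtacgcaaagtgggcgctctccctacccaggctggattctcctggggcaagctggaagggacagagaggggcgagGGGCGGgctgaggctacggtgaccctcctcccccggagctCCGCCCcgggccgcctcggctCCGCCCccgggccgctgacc
The windows hold 4 GC boxes for Vegfb, 2 for Vegfc and 3 for Flt4. RefSeq windows were matched for all 9 members, and 10 of their 11 windows hold a GC box, as do 32.7% of the 32851 windows of this length searched. GC boxes are letters that factors of the Sp family can bind, and a match is a description of the window only.

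Among the receptors, the means of Flt1, Kdr and Flt4 were all higher with rhTM by the scanner output, but for Flt1 and Kdr the sign turned in the authors' table. Flt1 (probe A_51_P398723), the VEGF-A decoy and PlGF receptor, had levels of 4.03, 4.10 and 4.27 with saline and 4.10, 4.43 and 4.34 with rhTM. rhTM replicates 2 and 3 were above all saline arrays and rhTM replicate 1 was not. The difference was 0.16 (SE 0.14, interval -0.18 to 0.49, exact permutation p = 0.3). It was 0.25 without rhTM replicate 1 and 0.084 without rhTM replicate 2. In the authors' table it was -0.11 (SE 0.14, limma adjusted p = 0.717).

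Kdr (probe A_51_P316553), the main signalling receptor of endothelium, had levels of 3.42, 3.55 and 3.78 with saline and 4.09, 3.72 and 3.52 with rhTM. rhTM replicate 1 was the highest array, 1.41-fold above the mean of the other 5, and the other rhTM arrays lay inside the saline range. The difference was 0.19 (SE 0.18, interval -0.25 to 0.63, exact permutation p = 0.5), and it was -0.0075 in the authors' table (limma adjusted p = 0.990). By the scanner output it was 0.036 without rhTM replicate 1 and 0.32 without rhTM replicate 3.

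Flt4 (probe A_51_P179531), the VEGF-C receptor of lymphatic endothelium, had levels of -2.53, -2.84 and -2.96 with saline and -2.71, -2.97 and -2.34 with rhTM. The arrays of slide 2, 1 from each group, were the highest for this gene. The difference between treatments was 0.10 (SE 0.20, interval -0.38 to 0.58, exact permutation p = 0.7). With the column names of the authors' table the levels were -2.97, -2.84 and -2.96 for saline and -2.71, -2.53 and -2.34 for rhTM, and the groups did not overlap. The difference was then 0.40 (SE 0.12, interval 0.10 to 0.70), with an unadjusted p of 0.0164 and a limma adjusted p of 0.314. Flt4 was the only member without overlap in that table, where the groups did not overlap for 21.7% of all genes (9.68% with rhTM higher). It was also the only member at an unadjusted p under 0.05, beside 14.0% of all genes, and 2 of the 9 members had the higher mean with rhTM, beside 46.0% of all genes. An exact permutation test of 3 against 3 arrays cannot go below 0.1. By that naming slide 2 held rhTM replicates 2 and 3, so slide and treatment moved together. Taking the slide as a block then sets rhTM replicate 1 alone against the 3 saline arrays, and for Flt4 this gave 0.22 (limma adjusted p = 0.322).

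**Figure D2:**
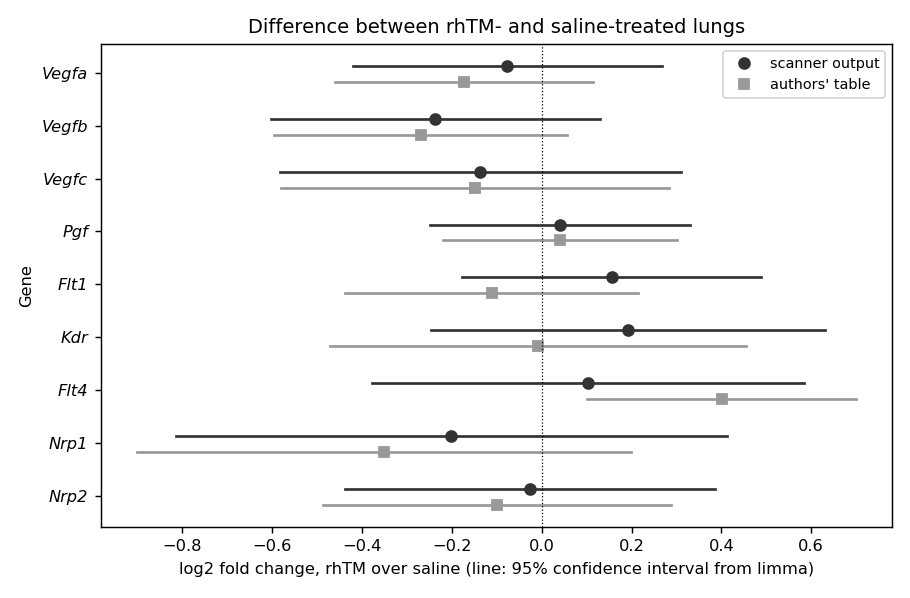
Difference between rhTM and saline in log2 units for each of the 9 members, with its 95% confidence interval, by the scanner values and by the authors' table, in which the columns of a saline and an rhTM array are exchanged. All intervals from the scanner output span 0, and in the table only that of Flt4, at 0.40 (0.10 to 0.70), does not.

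Both neuropilins had a lower mean with rhTM, neither passed the test, and Nrp1 had the widest scatter of the members. Nrp1 (probe A_55_P2830615), the co-receptor that presents VEGF-A to KDR, had levels of 4.04, 4.17 and 3.91 with saline and 3.27, 4.27 and 3.98 with rhTM. rhTM replicate 1 was the lowest array and rhTM replicate 2 the highest. The difference was -0.20 (SE 0.26, interval -0.81 to 0.41, exact permutation p = 0.8), and 0.08 without rhTM replicate 1. In the authors' table it was -0.35 (limma adjusted p = 0.503). Both other Nrp1 probes were lowest in the same array. The dimmest had levels of -0.81, -0.89 and -1.40 with saline and -2.10, -0.74 and -1.29 with rhTM, and the remaining probe 2.64, 2.51 and 2.31 with saline and 1.54, 2.73 and 2.57 with rhTM. The 3 probes placed rhTM replicate 1 below the mean of the other 5 arrays by differences of -0.81, -1.08 and -1.02, so the low value did not rest on 1 probe.

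Nrp2 (probe A_55_P2800321), the co-receptor of VEGF-C and semaphorin 3F, had levels of 5.57, 5.83 and 5.75 with saline and 5.98, 5.68 and 5.42 with rhTM. The highest and the lowest array were both from rhTM. The difference was -0.03 (SE 0.17, interval -0.44 to 0.39, exact permutation p = 0.9), and the other 2 probes gave -0.03 and -0.07. It was -0.10 in the authors' table. The probes disagreed on single arrays: the brightest was highest in rhTM replicate 1 and the others were not.

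**Figure D3:**
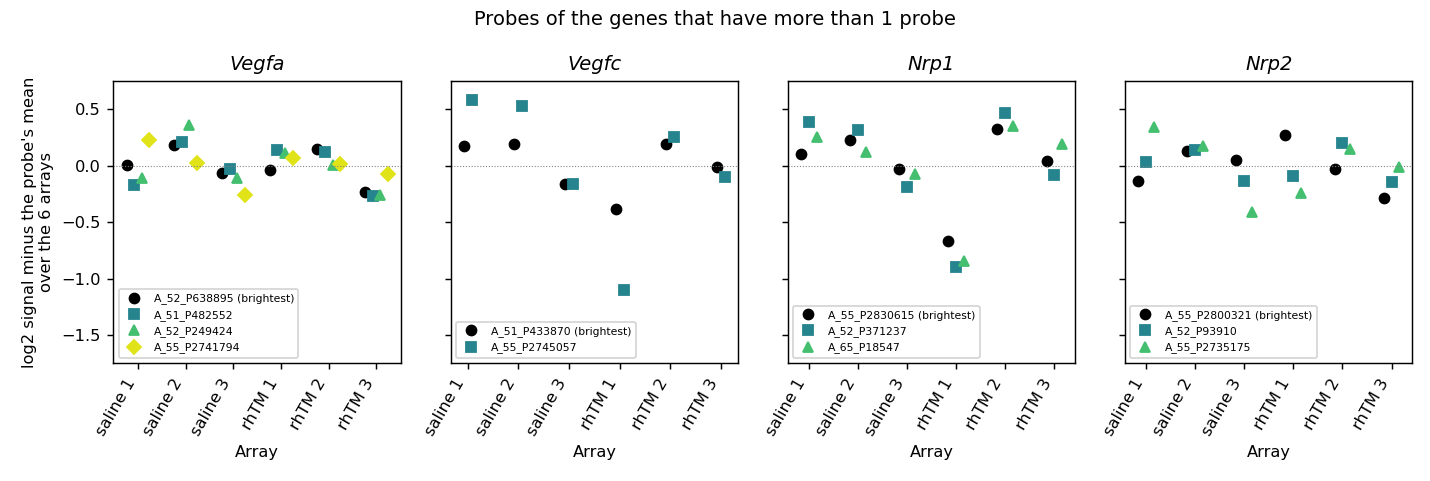
Level of every probe of the members with more than 1 probe (Vegfa, Vegfc, Nrp1 and Nrp2) on the 6 arrays, in log2 units centred on each probe's own mean. All 3 Nrp1 probes are lowest in rhTM replicate 1, whereas the Nrp2 probes differ in order.

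rhTM replicate 1 was an extreme array for 5 of the members, although the labels give it no distinction. It was the lowest array for 3 of 9 members (Vegfb, Vegfc and Nrp1) and the highest for 2 (Kdr and Nrp2). It was also the lowest for 26.6% and the highest for 29.8% of all genes, more than any other array, so the members' count was near that background. For Nrp1 the level was 0.572 times the mean of the other 5 arrays, and 8.30% of all genes had a difference of larger size. Kdr and Nrp1 went opposite ways on this array, and their patterns were the furthest apart of all member pairs (root mean square difference 0.512), while Kdr and Nrp2 were among the closest (0.143).

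Markers of cell types moved on the same array. Of 14 endothelial markers, 8 were lowest in rhTM replicate 1, with a mean of -0.33 after each gene was centred. The summed level of these 14, in multiples of the 75th percentile, was 398 to 440 on the saline arrays. It was 377 to 424 on the rhTM arrays, with rhTM replicate 1 at the lower end. Of 10 capillary endothelial markers, 3 were lowest and 4 highest in rhTM replicate 1, with a centred mean of 0.0023. Of 8 type 2 markers 6 were lowest there, and of 7 tested type 1 markers 4. Of 8 tested neutrophil markers 5 were highest there (summed level 919 to 1085 with saline and 948 to 1208 with rhTM), and of 4 tested erythroid markers 3 (511 to 666 with saline and 486 to 650 with rhTM). The erythroid marker Hbb-bs and the neutrophil marker Ly6g were not matched to a probe. Of the 6 lymphatic markers, which include Prox1 and Lyve1, 1 was lowest in rhTM replicate 1 and 1 was highest. Their summed level was 117 there and 72.0 to 80.6 on the other 5 arrays. A sum weighs bright probes most, and the centred mean of the 6 was only 0.10 there. Other arrays had shifts as well. Mural and fibroblast markers were highest in rhTM replicate 3 (means 0.45 and 0.49), and airway markers were lowest in rhTM replicate 2 (mean -0.55). The type 1 mean was -0.24 in rhTM replicate 3, as it was in rhTM replicate 1. By treatment the median difference was -0.29 over 7 type 1, -0.12 over 8 type 2, -0.09 over 14 endothelial, 0.13 over 8 neutrophil, 0.07 over 4 erythroid, 0.02 over 6 lymphatic, 0.19 over 10 mural, 0.22 over 7 fibroblast, 0.12 over 10 capillary endothelial, -0.10 over 9 macrophage, 0.09 over 6 airway and 0.07 over 7 lymphocyte markers, and none of these genes was called. The median in the authors' table was -0.26 for endothelial, 0.0013 for capillary endothelial, 0.12 for type 2, 0.40 for airway, -0.16 for lymphocyte, 0.23 for erythroid, 0.22 for neutrophil, -0.20 for macrophage and 0.06 for lymphatic markers. The part of these shifts in the members' values was not tested.

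**Figure D4:**
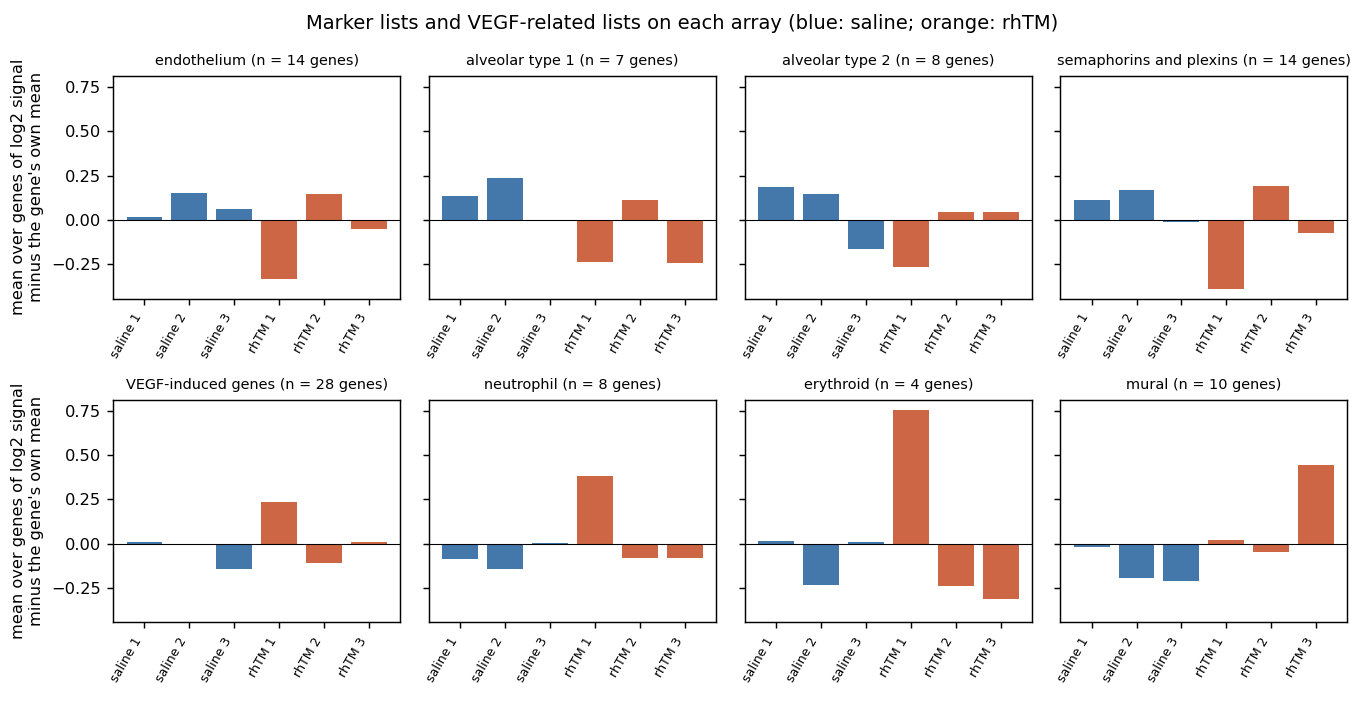
Mean level of 8 gene lists on the 6 arrays in log2 units, each gene centred on its own mean over the arrays, with saline in blue and rhTM in orange. rhTM replicate 1 is lowest for the semaphorins and plexins (-0.39) and endothelial markers (-0.33), and highest for the erythroid (0.76) and neutrophil (0.38) markers.

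By the scanner naming both slides held each treatment, and the slides were compared on that basis. By the table's naming slide 2 held only rhTM arrays, and slide 1 held rhTM replicate 1 beside the 3 saline arrays. Slide 2 and slide 1 did not overlap for 3 of 9 members, near the 32.7% of all genes for which this held. Flt4 was higher on slide 2 by 0.44 (SE 0.12), with a limma adjusted p of 0.195, and 0 members were called between slides, beside 1.42% of all genes. Kdr and Nrp2 were both lower on slide 2, with differences of -0.32 and -0.32 and adjusted p of 0.366 and 0.308. With the slide as a block, 0 members were called for treatment and their smallest adjusted p was 0.920. Within slide 1 the differences ran from -0.28 (Vegfb) to 0.24 (Kdr), and between the single arrays of slide 2 from -0.23 (Vegfa) to 0.31 (Flt1).

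Other genes of the pathway were counted in 5 lists with 134 genes, of which 130 were tested, and 0 were called in any list. The VEGF-induced genes, transcripts known to respond to KDR signalling in endothelium, were higher for 19 of 28, with a median of 0.07 beside 0.0026 over all genes. The median was -0.0015 without rhTM replicate 1 and 0.20 without rhTM replicate 2. In the authors' table it was 0.19, with 0.24 without rhTM replicate 3 and 0.44 with the slide as a block. The early growth response factors Egr2 and Egr1 had differences of 0.67 (SE 0.33) and 0.58 (SE 0.33), and both were highest in rhTM replicate 1. Egr2 was at 0.74 in the authors' table and Egr1 at 0.22. The Egr2 groups did not overlap there, as for 9.68% of all genes with rhTM higher. Icam1, a leukocyte adhesion molecule of activated endothelium, had -0.54 (SE 0.28), and the transcription factor Hlx had -0.33 (SE 0.15) but 0.05 in the authors' table. In rhTM replicate 1, 15 of these 28 genes had their highest value.

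The semaphorins and plexins, the neuropilins' other ligands and their partner receptors, were higher for 2 of 14, with a median of -0.15. Without rhTM replicate 1 the median was -0.024, and without rhTM replicate 2 it was -0.28. With the slide as a block in the authors' table it was -0.50. The 2 higher genes were Plxna2 (0.17, SE 0.14) and Plxnd1 (0.07, SE 0.13). Both were below 0 in the authors' table, at -0.09 and -0.03, where 0 of 14 were higher and the median was -0.14. Sema3g, an endothelial semaphorin, had levels of -1.35, -1.55 and -1.58 with saline and -2.34, -1.74 and -1.65 with rhTM. Its groups did not overlap, as for 2.57% of all genes in that direction, the difference was -0.42 (SE 0.20), and in the authors' table it was -0.16 and the groups overlapped. L1cam, an adhesion molecule that binds neuropilin 1, had -0.34 (SE 0.20). rhTM replicate 1 was the lowest array for 11 of the 14 genes.

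Among 20 regulators of Vegfa and genes of the hypoxia response, 13 were higher, with a median of 0.06. Hif1a, the oxygen-regulated subunit of the factor that drives Vegfa transcription, had levels of 3.73, 3.80 and 3.67 with saline and 4.48, 3.98 and 4.32 with rhTM. All rhTM arrays were above all saline arrays, as for 2.95% of all genes. The difference was 0.53 (SE 0.16), with an unadjusted p of 0.0122 and a limma adjusted p of 0.9999, and in the authors' table it was 0.36 and the groups overlapped. Slc2a1, a glucose transporter among the targets of that factor, had 0.42 (SE 0.21), and 0.48 in the authors' table. Its groups did not overlap in that table, as for 9.68% of all genes with rhTM higher. The vasodilator peptide gene Adm had -0.29 (SE 0.16) and the collagen hydroxylase gene P4ha1 had -0.22 (SE 0.15).

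The other ligand and extracellular genes were higher for 6 of 11, with a median of 0.0039. The median was 0.14 without rhTM replicate 1, 0.11 without rhTM replicate 2 and 0.16 without both exchanged arrays. Adamts1, a protease that binds VEGF-A, had levels of 2.13, 2.13 and 2.16 with saline and 3.38, 2.25 and 2.96 with rhTM. The rhTM arrays were all above the saline arrays, by little in replicate 2. The difference was 0.73 (SE 0.27), with an unadjusted p of 0.0338, and in the authors' table it was 0.65 and the groups overlapped. Vegfd, the other FLT4 ligand, had -0.32 (SE 0.46), and -0.72 in the authors' table, with scanner levels of 2.77, 3.15 and 2.56 against 1.48, 3.37 and 2.66. Only rhTM replicate 1 lay below the saline range. The matrix protein gene Sparc had 0.16 (SE 0.16) and the matrix protease gene Mmp9 had -0.10 (SE 0.22).

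The receptor signalling genes were higher for 28 of 58, with a median of -0.0082. The adaptor gene Shc1 had 0.22 (SE 0.13), and 0.24 in the authors' table. Its groups did not overlap in that table, as for 9.68% of all genes with rhTM higher. The exchange factor gene Vav2 had -0.36 (SE 0.20) and the transcription factor gene Nfatc2, activated by calcineurin downstream of KDR, had -0.22 (SE 0.13). None of the related genes named here passed the adjusted threshold.

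With the slide as a block in the authors' table, 9 of the 130 related genes (6.92%) were called, beside 2.65% of all genes. By the table's naming slide 2 held only rhTM arrays, so this fit compared rhTM replicate 1 alone with the 3 saline arrays. The calls therefore describe 1 lung, whose spread is assumed to be that of the saline arrays and of the rhTM arrays on slide 2. The 5 higher were the endothelial transcripts Esm1 (1.33) and Angpt2 (0.70), the tissue factor gene F3 (1.29), Egr2 (1.43) and the hypoxia-response gene Ndrg1 (1.52). The 4 lower were the adhesion molecule gene Vcam1 (-1.40), the basement membrane gene Nid2 (-1.05), the semaphorin receptor gene Plxna3 (-1.81) and the adaptor gene Nck1 (-0.99). Over all 6 arrays by the scanner output the same genes had smaller differences, each with a limma adjusted p of 0.9999. These were 0.39 for Esm1, 0.23 for Angpt2, 0.49 for F3, 0.67 for Egr2 and 0.52 for Ndrg1, and -0.36 for Vcam1, -0.39 for Nid2, -0.44 for Plxna3 and -0.25 for Nck1. In the authors' table without the block they ran from 0.02 (Angpt2) to 0.74 (Egr2) and from -0.73 (Vcam1) to -0.30 (Nck1). No member was called in this fit, and at an unadjusted p under 0.05 there were 3 members (Vegfb, Kdr and Nrp1), where 28.1% of all genes were. Nrp1 came nearest, at -0.85 with an adjusted p of 0.0555 by limma.

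**Figure D5:**
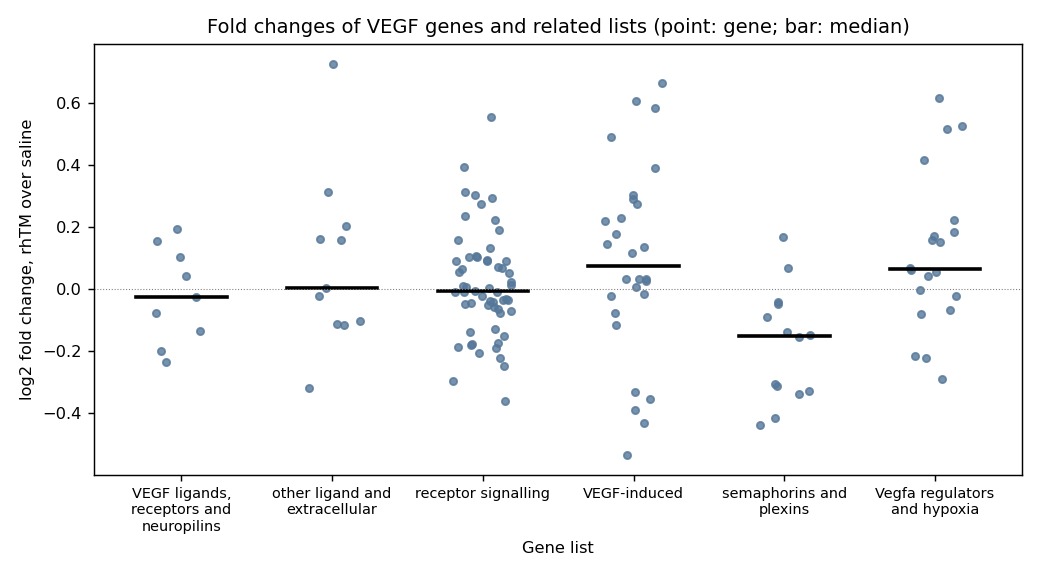
Difference between rhTM and saline in log2 units for each tested gene of the 9 members and the 5 lists of related genes, with 1 point per gene, a bar at the list's median and a dotted line at 0. The list medians lie between -0.15 (semaphorins and plexins) and 0.07 (VEGF-induced genes), and no gene passed the adjusted threshold.

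The genes with the pattern most like a member were found by the root mean square difference over the 6 arrays after centring each gene. For Vegfa these were Pygm (0.0259), Foxn2 (0.0359) and Nop58 (0.0372), and 766 of 16369 other genes lay within 0.1. For Kdr they were Ppp2r2d (0.0135), Gchfr (0.0167) and Unc50 (0.0210), with 545 genes within 0.1. For Flt1 they were Abcg2 (0.0278), Fam162a (0.0418) and Ccdc167 (0.0430), with 158 genes within 0.1. With 6 arrays and small changes, a close pattern was shared by many genes.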

How the data were processed

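Whole-lung RNA of 3 saline and 3 rhTM mice was measured on 1-colour Agilent arrays. The authors deposited the scanner output, whose intensity values are processed signals made by Feature Extraction (10.7.3.1 per the file headers, 9.1 per the submitters' processing notes), and a table of linear intensity values that the authors made from the same arrays. Its columns matched the scanner's processed signals averaged per probe, unscaled between arrays, with medians of 90.4, 92.0 and 87.6 for saline replicates 1 to 3 and 81.6, 77.7 and 76.9 for rhTM replicates 1 to 3, as the table names them. The array design was annotated on mm9. Depth has no meaning for arrays, and precision was limited by 3 arrays per group.

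Control spots were left out, as were probes lacking a spot free of outlier flags on any 1 of the arrays, and spots of a probe were averaged. Each array was scaled to its 75th percentile and log2 was taken. Probes were matched to genes through accessions in the RefSeq table (32994 probes, 22911 genes). A probe was kept where the 3 saline arrays or the 3 rhTM arrays were all well above background, with the brightest probe per gene. R 4.3.3 and limma 3.58.1 (lmFit, eBayes) were used with no covariate, with p-values adjusted by Benjamini-Hochberg across the genes tested (threshold 0.05), and a two-sided exact permutation test per member. The authors' table was scaled likewise and compared with its columns as named, also with the slide as a block. Alternatives were normexp background correction (offset 50), quantile scaling, other filters and probes, slide and replicate blocks, left-out arrays and the methods' t-test (fold of 2 or 0.5, P under 0.01).

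The members, lists and alternatives were chosen with earlier results of these data known. Two-sided p-values are given throughout. Named beside the members were every gene called and, where none was called in a direction, the 2 genes of each related list with the smallest unadjusted p in that direction, and the 3 genes most like Vegfa, Kdr and Flt1. A gene that this rule names is not reported here. Related genes named in the fit with the slide as a block were chosen after their values were seen.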

Additional observations from a re-analysis of the deposited data

How the results depend on the processing

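No member was called under any alternative run. The smallest adjusted p was 0.0555, for Nrp1 when the slide was a block in the authors' table (limma). Vegfb kept its sign throughout, and the other members turned under at least 1 alternative. In the authors' table Flt1 was at -0.11 and Kdr at -0.0075, the same under the methods' t-test on that table (an alternative chosen after seeing the data, as were other probes in that table). With the slide as a block there, Flt1 was at -0.17 and Nrp2 at 0.23. In that fit Kdr was at 0.41 and Vegfc at -0.46, further from 0 than by the scanner output. Within slide 1, Vegfa was at 0.0016 and Nrp2 at 0.036. The Vegfa probe A_55_P2741794 gave 0.0022, and 0.15 in the table, and the Nrp2 probe A_55_P2735175 gave 0.060 in the table. Leaving out each array in turn gave Vegfa -0.17 to 0.018, Vegfc -0.27 to 0.020 (highest without rhTM replicate 1), Pgf -0.015 to 0.11, Flt1 0.084 to 0.25, Kdr 0.036 to 0.32, Flt4 -0.065 to 0.25, Nrp1 -0.42 to 0.085 (highest without rhTM replicate 1) and Nrp2 -0.17 to 0.11 (0.031 without saline replicate 2). The same in the table gave Vegfc -0.27 to 0.0049, Pgf -0.017 to 0.11, Flt1 -0.20 to -0.028 (-0.19, -0.11, -0.081 and -0.049 between), Kdr -0.21 to 0.12 (-0.075 without saline replicate 2) and Nrp2 -0.26 to 0.020.

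Members without overlap between groups numbered 1 in the table and 1 with its slide as a block (Flt4 both times), and 2 without both exchanged arrays (Vegfb lower, Flt4 higher), where 41.2% of all genes did not overlap. Leaving out 1 array gave 0 to 1 (Pgf, Flt1 or Vegfb), where 8.85% to 24.4% of all genes did not overlap. In the table it gave 1 to 5, where 26.6% to 45.9% of all genes did not overlap, and the 5 (Vegfa, Vegfb, Vegfc, Flt4 and Nrp1), without saline replicate 3, stood beside 33.6%. Members at an unadjusted p under 0.05 numbered 1 in the table, 1 by the methods' t-test there (Flt4) and 3 with the slide as a block (Vegfb, Kdr and Nrp1), and 0 to 2 with 1 array left out of the table, where 7.02% to 25.3% of all genes were. The 2 stood beside 25.3% without rhTM replicate 1 and 14.6% without rhTM replicate 2. Over all genes, 0 were called by the scanner output, 0 to 561 with 1 array left out of the table (561 without rhTM replicate 1) and 432 when the slide was a block there. Of the related genes 9 were called in the last fit and 0 to 2 with 1 array left out of the table (Spry4 and Car9, both higher, without rhTM replicate 1). By the table's naming, the fit without rhTM replicate 1 set rhTM arrays that all lay on slide 2 against saline arrays that all lay on slide 1. Treatment and slide cannot be told apart in that fit. The causes were not tested. With the replicate number as a block 0 members were called. Deviations of same-numbered arrays from their group means had correlations across genes of -0.30, 0.44 and -0.45 for numbers 1, 2 and 3. Of these pairs only number 2 shared a slide. The highest correlation, 0.64, was between saline replicate 1 and rhTM replicate 3, the arrays of slide 2. Number and slide are mixed here, so these values cannot decide whether the numbers pair the arrays. All 17 member probes were well above background and none was saturated.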
